A study of Arabidopsis thaliana with 8 samples.

Results

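Transcripts of 8 Arabidopsis genes whose products work against Polycomb silencing were followed in wild-type plants and in a mutant of one of the silencing enzymes. The 8 genes are REF6, ELF6, JMJ13, JMJ30 and JMJ32, which encode histone H3 lysine 27 demethylases, and ATX1, ULT1 and ULT2, which are counted with the trithorax group. They were chosen by name, and they are 8 of the 34759 loci in the deposited table. All 8 had a usable value in each of the 8 libraries and passed the filter for testing.

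The study compared Col-0 wild-type plants (wt) with clf-28, a mutant of CURLY LEAF (CLF) in the same ecotype, in 4 organs. Each genotype gave 1 RNA-seq library from roots and 1 from leaves of plants 2 weeks old on plates, and 1 from flowers and 1 from siliques (seed pods) of plants 5 weeks old in soil. All plants grew in long days at 22 °C, and what the labels call leaves was taken as the aerial part. The labels give neither the hour of harvest, nor how many plants were pooled, nor the stage of the siliques.

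CLF is a catalytic subunit of Polycomb repressive complex 2 (PRC2), which places methyl groups on lysine 27 of histone H3 and so keeps developmental genes silent. Demethylases of the Jumonji C (JmjC) family take these methyl groups off, and trithorax-group proteins hold genes in the active state, in part by methylating lysine 4 of the same histone. In Arabidopsis the 2 kinds of activity meet at genes such as the floral organ identity gene AGAMOUS (AG) and the flowering repressor FLC.

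Sequence was looked at for the genes whose levels moved most between libraries. JMJ30 is known as a gene under the circadian clock, and the evening element, the 9 letters AAAATATCT that clock proteins such as CCA1 and LHY bind, was searched on both strands from 300 bases before to 150 bases after the RefSeq start of each gene (build TAIR10.1). JMJ30 held 3 of them, all on its own plus strand. By the RefSeq annotation all lie in the transcribed part, before the first coding base at position 7275814 of chromosome 3. They are shown with 8 bases on either side and the element in capitals, at chr3:7275647-7275671, chr3:7275674-7275698 and chr3:7275736-7275760.
JMJ30 element 1: agatacgaAAAATATCTgatcctaa
JMJ30 element 2: atcacttcAAAATATCTttctttcc
JMJ30 element 3: atcactctAAAATATCTcccaccac
The elements began at bases 11, 38 and 100, counted from 1 at the RefSeq start of the gene. The deposited JMJ30 locus starts later, at 7275674, so element 1 lies before it. At least 1 element lay in this window in 1032 of 27443 genes (3.76%), at least 2 in 47 genes (0.171%) and at least 3 in 5 genes (0.0182%). None of the other 7 genes held one. The window was widened past the start of the gene after the 300 bases before it had held no match in JMJ30, so these shares describe the window and carry no test. A match of letters is not a binding site.

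ULT1 and ULT2 are close relatives whose levels moved alike over the libraries, so the 300 bases before the RefSeq start of each are given as well, 5′ to 3′ on the strand of the gene. ULT1 lies on the plus strand with its window at chr4:13984395-13984694, and ULT2 on the minus strand with its window at chr2:8967244-8967543. The deposited loci begin inside the RefSeq genes, at 13985178 for ULT1 and, on the minus strand, at 8966867 for ULT2. Capitals mark the GA repeat GAGAGA.
ULT1 upstream: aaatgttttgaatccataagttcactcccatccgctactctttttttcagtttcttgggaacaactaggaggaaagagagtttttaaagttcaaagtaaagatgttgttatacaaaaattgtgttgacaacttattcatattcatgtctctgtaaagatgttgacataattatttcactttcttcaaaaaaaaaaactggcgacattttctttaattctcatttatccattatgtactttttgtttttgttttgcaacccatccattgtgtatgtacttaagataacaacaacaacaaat
ULT2 upstream: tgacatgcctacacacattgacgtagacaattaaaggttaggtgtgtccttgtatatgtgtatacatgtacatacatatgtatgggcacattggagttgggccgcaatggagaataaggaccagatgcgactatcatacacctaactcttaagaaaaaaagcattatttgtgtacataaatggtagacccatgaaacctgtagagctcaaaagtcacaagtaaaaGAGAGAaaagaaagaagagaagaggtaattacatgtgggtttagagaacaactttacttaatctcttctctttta
The ULT1 window had 29.3% G and C and the ULT2 window 36.7%. Letters searched on both strands were the evening element, the G-box CACGTG, the seed-type RY element CATGCA, the telobox AAACCCTA, the GA repeat GAGAGA, and the 4 forms CTCTGCTC, CTCTGCTT, CTCTGTTC and CTCTGTTT of the motif that the zinc fingers of REF6 bind. Of these, ULT2 held a single GA repeat, at bases 75 to 70 before its start, and ULT1 held none of the searched letters. REF6 held an overlapping pair of GA repeats on the minus strand, and the other 5 genes held no match in this window. The JMJ32 window lies wholly within exons of the neighbouring gene AT3G45890. Among all 27443 upstream windows, 23.6% held a GA repeat, 10.3% an RY element, 7.09% a G-box, 6.87% the REF6 motif, 5.21% a telobox and 2.79% an evening element.

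Levels are FPKM (fragments scaled to the length of the transcript and to all mapped fragments of the library), which can be compared between genes because they are scaled to length. With 1 library in each of the 8 groups there is no replicate error, read counts were not used here, and the depth of each library is unknown. The only precision given for a value is the lower and upper bound that the authors' program attached to it, written below as the authors' interval. A difference between genotypes within an organ therefore has no test, and is called 2-fold when log2(FPKM + 1) differed by at least 1. This scale understates the change of low genes. Bulk tissue cannot tell fewer cells of a type from less RNA per cell.

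The organ labels were checked against markers, and the siliques and roots differed between genotypes in what they held. Summed over the 5 markers of each list, root genes stood at 1282 and 1084 FPKM in wt and clf-28 roots and at most 20.7 elsewhere. Anther and pollen genes stood at 2170 and 1336 FPKM in wt and clf-28 flowers and at most 22.8 elsewhere. Single markers moved in both directions within these sums. In roots FRO2 stood at 149 FPKM in wt against 35.3 in clf-28 and IRT1 at 373 against 159. Of the 5 root markers 2 were higher in clf-28 roots, BGLU21 at 589 against 742 and EXPA7 at 30.4 against 30.8. In siliques AT5G45880 stood at 22.6 against 9.72, GRP17 at 0.00638 against 6.37 and GRP19 at 0.127 against 3.16. Over the 4 usable of 6 embryo and seed maturation markers, siliques summed to 2.7 FPKM in wt (1 marker at 0, 3 under 1) and 14910 in clf-28 (the lowest at 703), while roots summed to 25.8 in wt and 0.0323 in clf-28. Over 3 usable of 5 green tissue markers, siliques summed to 7182 FPKM in wt and 2115 in clf-28, and roots to 33.6 and 11.7. Seed content and genotype cannot be told apart in the siliques. The level of CLF itself did not separate the genotypes: its log2 ratio, clf-28 over wt, was -1.04 in roots, -0.22 in leaves and 0.52 in flowers, with 6.53 FPKM in wt siliques against 15.1 in the mutant, and a gene-level value over the whole locus does not show an insertion.

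**Figure D1:**
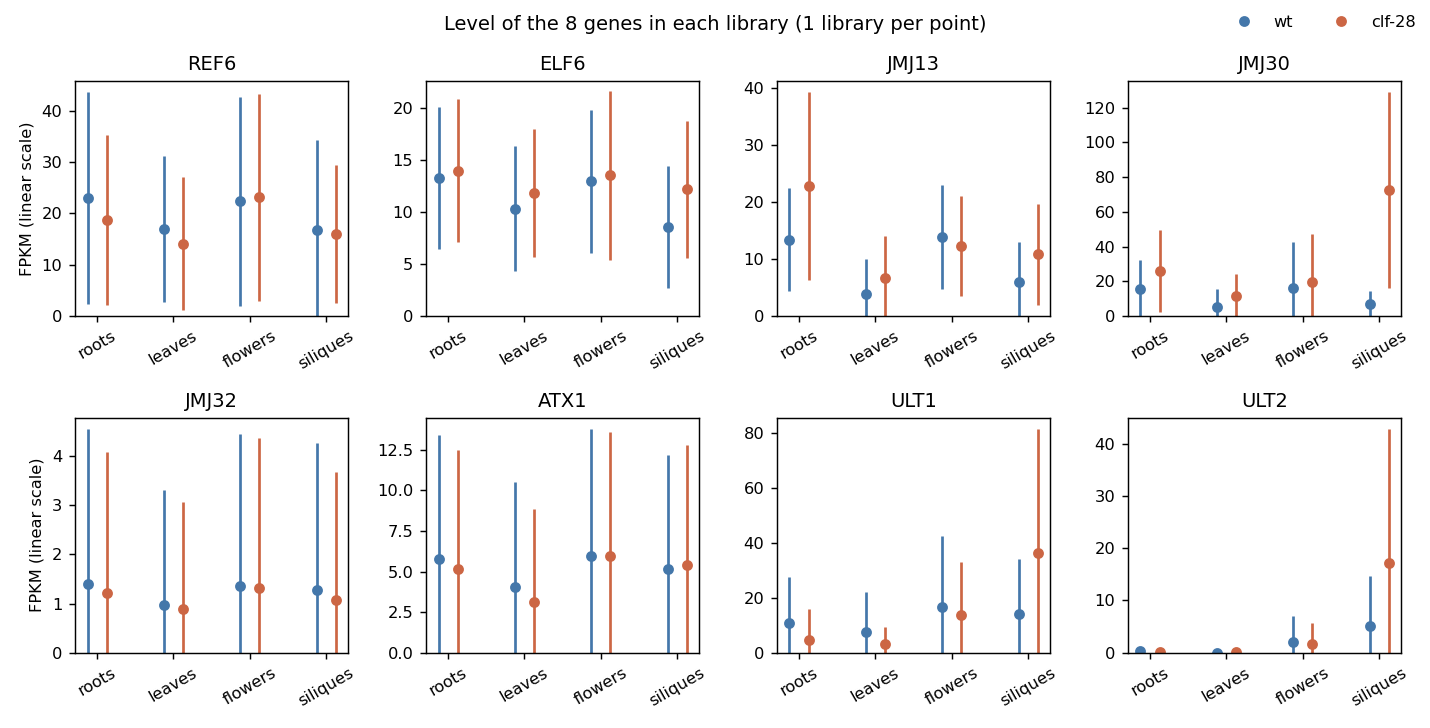
FPKM (linear scale, each panel with its own axis) of the 8 genes in roots, leaves, flowers and siliques. Each point is 1 library, wt in blue and clf-28 in red, and lines are the authors' intervals. JMJ30 in siliques, at 6.58 FPKM in wt against 72.7 in clf-28, is the single pair whose lines do not overlap.

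REF6 (AT3G48430, chromosome 3, 17935241 to 17940954) is a demethylase with zinc fingers that guide it to DNA, and it was among the steadiest of the 8 genes. The FPKM of wt against clf-28 was 23 against 18.7 for roots, 16.9 against 14.1 for leaves, 22.3 against 23.1 for flowers and 16.8 against 16 for siliques. The highest library was 1.63 times the lowest, and wt and clf-28 values were interleaved over the organs. The authors' intervals were wide, for example 2.34 to 43.6 FPKM in wt roots. The log2 ratios of clf-28 over wt were -0.28, -0.24, 0.05 and -0.06 in that order of organs.

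ELF6 (AT5G04240, chromosome 5, 1169153 to 1174943) is the closest relative of REF6 and is known for removing the repressive mark from FLC during reproduction. Roots had 13.2 FPKM in wt against 13.9 in clf-28, leaves 10.3 against 11.8, flowers 12.9 against 13.5, and siliques 8.53 against 12.2. clf-28 was the higher library in 4 of 4 organs, as for 10.3% of all tested genes, with log2 ratios from 0.06 in flowers to 0.47 in siliques, and the authors' intervals overlapped in each organ. An antisense gene, AT5G04238, shares the deposited locus, at 16.3 FPKM in wt against 15.3 in clf-28 for roots, 11.3 against 14.5 for leaves, 12.2 against 15.2 for flowers and 7.4 against 15.5 for siliques. It was thus also higher in clf-28 in leaves, flowers and siliques, and like ELF6 differed most in siliques. The library kit does not mark strand, so reads of the 2 genes cannot be told apart where they overlap.

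JMJ13 (AT5G46910, chromosome 5, 19046385 to 19053378), a demethylase that delays flowering depending on day length and temperature, varied more between organs. Roots held 13.4 FPKM in wt against 22.8 in clf-28, and flowers 13.9 against 12.2. Lower values were found in leaves, at 3.89 and 6.61 FPKM, and in siliques, at 5.88 and 10.8. clf-28 was higher than wt in roots, leaves and siliques, with log2 ratios of 0.73, 0.64 and 0.78, and lower in flowers, at -0.17. None of these reached 2-fold, and the authors' intervals overlapped. The opposite-strand gene AT5G46915 shares the locus, at 0.0926 to 2.61 FPKM.

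JMJ30 (AT3G20810, chromosome 3, 7275674 to 7278432; JMJD5 in RefSeq) is a JmjC protein that acts at FLC in warmth and is itself part of the clock. With wt given first, roots had 15.4 against 25.6 FPKM, leaves 5.11 against 11.3, flowers 15.9 against 19.3 and siliques 6.58 against 72.7. As for ELF6, clf-28 was the higher library in 4 of 4 organs. The clf-28 siliques stood far above the other 7 libraries, the highest of which had 25.6 FPKM.

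In siliques the authors' interval for JMJ30 was 0 to 14.4 FPKM in wt and 15.9 to 129 in clf-28. Of the genes measured in siliques, 41 (0.196%) had intervals that did not overlap with clf-28 higher, JMJ30 being one of them. The log2 ratio was 3.28, an 11-fold difference in FPKM, against a central 95% of all genes in siliques from -1.62 to 2.65. In roots, leaves and flowers the log2 ratios were 0.70, 1.01 and 0.27. The leaf value lay at the edge of the 2-fold rule, and went under it with upper-quartile scaling of the libraries (0.98), with quantile scaling (0.89) and with a pseudocount of 5 (0.69).

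JMJ32 (AT3G45880, chromosome 3, 16867202 to 16871548) is the partner of JMJ30 at FLC and was far less abundant. Roots gave 1.39 FPKM in wt against 1.22 in clf-28, leaves 0.963 against 0.883, flowers 1.35 against 1.32, and siliques 1.28 against 1.07. Values of clf-28 were the lower in 4 of 4 organs, as for 14.1% of tested genes, and the largest log2 difference was -0.14. These differences are small against intervals that all began at 0. The locus is shared with AT3G45870 on the other strand, a gene at 0.594 to 14.6 FPKM.

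ATX1 (AT2G31650), the trithorax homologue that methylates lysine 4 of histone H3, was measured on a locus that Cufflinks merged with the pseudogene AT2G31625 on the same strand (chromosome 2, 13453331 to 13462452). For the merged locus, roots gave 5.79 FPKM in wt against 5.16 in clf-28, leaves 4.03 against 3.11, flowers 5.94 against 5.93, and siliques 5.14 against 5.43. Leaves were the lowest organ in both genotypes, and the log2 ratios ran from -0.29 in leaves to 0.07 in siliques.

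ULT1 (AT4G28190, chromosome 4, 13985178 to 13987442) encodes a SAND-domain protein of the trithorax group that opposes CLF at AG. In seedling organs clf-28 was the lower library, at 4.5 FPKM against 10.7 in wt roots and at 3.03 against 7.42 in leaves. In flowers the values were 13.7 FPKM in clf-28 and 16.4 in wt, and in siliques the order was turned, with 36.1 in clf-28 and 14.1 in wt. The log2 ratios were -1.08, -1.06, -0.24 and 1.30, so that roots and leaves passed the 2-fold rule downwards and siliques upwards. The authors' intervals overlapped in each organ, from 0 to 34 FPKM in wt siliques and from 0 to 81.4 in clf-28 siliques. Over the organs, wt ULT1 varied 2.21-fold and clf-28 ULT1 11.9-fold.

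The ULT1 ratios in seedling organs were close to the threshold. With a pseudocount of 5 they were -0.72 in roots and -0.63 in leaves, neither past it. Quantile scaling also took the leaf value just under it. In siliques the ratio stayed past it under each scaling and pseudocount tried, from 1.11 to 1.35.

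ULT2 (AT2G20825, chromosome 2, 8965756 to 8966867), the paralogue of ULT1, reached 1 FPKM in flowers and siliques alone. Roots had 0.2 FPKM in wt against 0.186 in clf-28, and the gene was listed at 0 in wt leaves and at 0.0283 in clf-28 leaves. Flowers had 2.1 FPKM in wt and 1.61 in clf-28, and siliques had 5.04 and 17.1. The siliques were the highest organ in both genotypes, and clf-28 siliques the highest library, with a log2 ratio of 1.58. Here too the authors' intervals, 0 to 14.6 and 0 to 42.8 FPKM, overlapped.

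The 2-fold rule was passed by ULT1, JMJ30 and ULT2, and by none of the other 5 genes in any organ. In roots 0 of 7 measured genes were higher and 1 was lower (ULT1), while 5.55% of all measured genes were higher and 1.22% lower. In leaves 1 of 6 was higher (JMJ30) and 1 lower (ULT1), beside 5.45% and 1.43% of all genes. In flowers 0 of 8 passed in either direction, beside 1.51% and 1.04%. In siliques 3 of 8 were higher (JMJ30, ULT1 and ULT2) and 0 lower, beside 11.4% and 8% of all genes.

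The medians of the 8 genes and of all genes were closest in roots, leaves and flowers. Among the measured genes of the 8 the median log2 ratio was -0.10 for roots, -0.03 for leaves and -0.01 for flowers, where the medians of all genes were -0.09, -0.02 and 0.01. In siliques it was 0.62 against -0.01 for all genes. The seed markers given above moved in the same pair of silique libraries, and their part in the values of JMJ30, ULT1 and ULT2 was not tested.

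**Figure D2:**
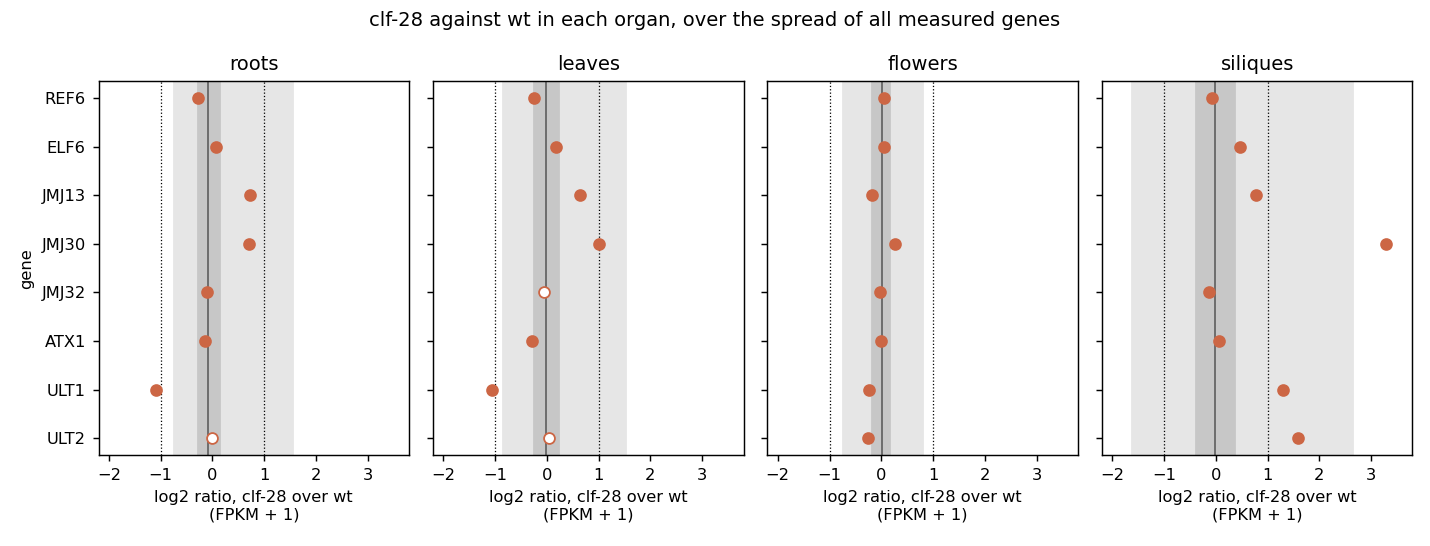
The log2 ratio of clf-28 over wt, on the log2(FPKM + 1) scale, for the 8 genes in each organ, with 1 library per genotype. Light and dark grey bands hold the central 95% and 50% of all measured genes, the grey line is their median, dotted lines mark 2-fold, and open points are genes under 1 FPKM in both libraries. In siliques JMJ30 at 3.28 lies beyond the light band, which ends at 2.65, and in roots and leaves ULT1 lies below it.

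Whether the genotype had an effect shared by the organs was tested in limma, with the 4 organs as blocks. None of the 8 genes passed, and neither did any of 24078 genes. At an unadjusted p under 0.05 there were 0 of the 8, while 1323 genes (5.49%) were higher and 1516 (6.3%) lower in clf-28. JMJ30 had the largest mean log2 difference of the 8, 1.32 (SE 0.53, adjusted p = 0.426 in limma), which was 0.66 without siliques. JMJ13 followed at 0.49 (SE 0.19, adjusted p = 0.423 in limma), higher in 3 of 4 organs.

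The remaining estimates were smaller than these. ULT2 stood at 0.34 (SE 0.34), a value that turned to -0.075 without siliques. ELF6 stood at 0.19 (SE 0.11), JMJ32 at -0.08 (SE 0.095), ATX1 at -0.09 (SE 0.12) and REF6 at -0.13 (SE 0.093). Single organs moved these too: ELF6 was 0.10 without siliques, ATX1 -0.024 without leaves and -0.14 without siliques, and REF6 -0.20 without flowers and -0.085 without roots. ULT1 averaged -0.27 (SE 0.44), a mean of organs that point in opposite directions: it was -0.80 without siliques, -0.0085 without leaves and -0.0016 without roots.

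A difference of the clf-28 effect between the reproductive organs (flowers and siliques) and the seedling organs (roots and leaves) was tested in a fit with 2 residual degrees of freedom. Of the 8 genes, ULT1 had the largest, 1.60 (SE 0.58), with an unadjusted p of 0.0529 and an adjusted p = 0.832 in limma. None of 24078 genes passed, and at an unadjusted p under 0.05 there were 394 higher (1.64%), 652 lower (2.71%) and 0 of the 8. The opposite ratios of ULT1 in siliques and in seedling organs are therefore a description of 6 libraries.

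Organs were told apart by far more genes than genotypes were. The organ test in limma, which takes the wt and the clf-28 library of an organ as its pair of values, called 17361 of 24078 genes (72.1%) and 3 of the 8. These were ULT2 (adjusted p = 0.00811 in limma), JMJ13 (adjusted p = 0.0161) and REF6 (adjusted p = 0.0408). The REF6 call was lost with upper-quartile scaling (adjusted p = 0.0715 in limma), quantile scaling (0.203) and without the mean-variance trend (0.0548), and its adjusted p was 0.0391 to 0.0451 under the other alternatives.

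ULT2 was higher in siliques than in either seedling organ. Its log2 level in siliques was 3.13 above roots (SE 0.48, adjusted p = 0.00601 in limma) and 3.37 above leaves (SE 0.48, adjusted p = 0.0107), where 21.9% and 19.8% of all genes were called higher in siliques. The same differences were 2.33 and 2.60 in wt alone and 3.93 and 4.14 in clf-28 alone. Their size depended on the pseudocount, with 5.01 and 6.37 at 0.1 and 1.52 and 1.57 at 5, and both passed in limma under each alternative (adjusted p from 0.00176 to 0.0344). Siliques did not pass against flowers, at 1.88 (SE 0.48, adjusted p = 0.0506 in limma), a pair in which 6.16% of genes were called higher in siliques. Nor did flowers pass against roots (1.26, adjusted p = 0.0863 in limma) or against leaves (1.49, adjusted p = 0.0597).

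For JMJ13 the order was roots and flowers, then siliques, then leaves. Leaves were 1.60 below roots, a log2 difference of -1.60 (SE 0.27, adjusted p = 0.00776 in limma), with 34.7% of all genes called lower in leaves. Flowers were 1.20 above leaves (SE 0.27, adjusted p = 0.0231 in limma), beside 34.6% of genes, a difference of 1.61 in wt alone and 0.80 in clf-28 alone. Siliques differed from roots by -1.04 (SE 0.27, adjusted p = 0.0312 in limma), beside 25.8% called lower. Flowers did not pass against roots (-0.40, adjusted p = 0.288 in limma) nor siliques against leaves (0.56, adjusted p = 0.182). The flowers and leaves call was lost with quantile scaling (0.67, adjusted p = 0.112 in limma), and the siliques and roots call without a filter on low genes (adjusted p = 0.0671). Under the other alternatives these calls had an adjusted p of 0.0194 to 0.0496 and of 0.0288 to 0.0438 in limma, and leaves passed against roots under each (0.00659 to 0.0236).

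REF6 and ATX1 passed in a single pair of organs, flowers over leaves. The log2 difference was 0.53 for REF6 (SE 0.13, adjusted p = 0.0298 in limma) and 0.61 for ATX1 (SE 0.16, adjusted p = 0.0362). In wt alone the differences were 0.38 and 0.47, and in clf-28 alone 0.67 and 0.75. Both depended on the scaling, with 0.17 for REF6 and -0.055 for ATX1 under quantile scaling (adjusted p = 0.371 and 0.829 in limma). REF6 passed under the other alternatives (adjusted p from 0.0278 to 0.0463 in limma). The ATX1 call was also lost with upper-quartile scaling (0.54, adjusted p = 0.0529 in limma) and without a filter on low genes (adjusted p = 0.05), and held under the others (0.0263 to 0.0379). The organ test was not passed by ATX1 (adjusted p = 0.0645 in limma, or 0.0447 without the trend), ULT1 (0.0926), ELF6 (0.156), JMJ32 (0.287) or JMJ30 (0.337).

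Some of the 8 genes had like profiles over the libraries. Pearson's r of log2(FPKM + 1) over the 8 libraries was 0.87 for ULT1 and ULT2, 0.90 for JMJ32 and ATX1, 0.86 for REF6 and JMJ32, and 0.82 for ELF6 and JMJ13. The points share libraries and organs, and 8 libraries give high values to many pairs, so these are descriptions only. Of 19726 genes compared, those most like ULT1 were BIOF (0.985), the Argonaute gene AGO6 (0.983) and FIE, a PRC2 subunit (0.971). ULT2 was most like UMAMIT25 (0.998), AT2G41225 (0.996) and AO4 (0.995), with ranges over the libraries from 0.0119 to 157 FPKM for UMAMIT25 and from 0.014 to 133 FPKM for AO4.

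For JMJ30 the nearest profile was AT3G13224 (0.971), and 9 genes had an r above 0.95. For REF6 it was RIP1 (0.993), with 283 genes above 0.95. ELF6 was nearest to SRO1 (0.976) and JMJ13 to the gene RefSeq calls RING, AT4G19700 (0.987). JMJ32 was nearest to AT3G15980 (0.994) and ATX1 to AT2G35605 (0.991).

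The clock was looked at because of the known rhythm of JMJ30. LHY and CCA1 are morning genes, and TOC1, LUX and ELF4 are evening genes of the same circuit. Of 6 evening genes, at least 2-fold higher in clf-28 were 0 for roots, 3 for leaves, 4 for flowers and 2 for siliques, and of 4 morning genes 0, 1, 2 and 2 were lower in the same order. Over all measured genes 5.55%, 5.45%, 1.51% and 11.4% were higher, and 1.22%, 1.43%, 1.04% and 8% lower. LHY was lower in clf-28 in 4 of 4 organs, as for 14.1% of tested genes. In the order roots, leaves, flowers, siliques its log2 ratios were -0.61, -1.02, -2.15 and -1.57. The other morning genes moved less evenly. CCA1 was at -0.055, -0.03, -1.19 and -1.59. PRR9 was at -0.49, -0.11, -0.13 and -0.83, and PRR7 at -0.61, -0.22, 0.65 and -0.22. TOC1 was higher in 4 of 4, as for 10.3% of tested genes, at 0.20, 1.63, 1.23 and 1.21. LUX was at 0.44, 0.99, 0.76 and 0.85, and ELF4 at -0.16, 1.30, 1.18 and 1.80.

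In the same libraries JMJ30 stood at 0.70, 1.01, 0.27 and 3.28. Over the same order of organs, GI was at -0.49, 0.17, 0.83 and 0.054, PRR5 at -0.82, 0.88, 2.90 and -0.31, and FKF1 at -0.57, 1.54, 1.65 and 0.58. JMJ30 had the sign of TOC1 and LUX in each organ. In roots JMJ30 was higher in clf-28 and the other 4 evening genes were lower. In flowers the 6 evening genes stood between 0.76 and 2.90 and JMJ30 at 0.27. In siliques they stood between -0.31 and 1.80 and JMJ30 at 3.28. In limma LHY (-1.34, SE 0.28), TOC1 (1.07, SE 0.25), LUX (0.76, SE 0.11) and ELF4 (1.03, SE 0.33) were under an unadjusted p of 0.05, and none passed adjustment. Of the other genes with at least 3 evening elements in the window, 3 had values. In the same order BBX13 stood at -0.11, 1.21, 1.42 and 0.45, BBX8 at 0.26, 1.24, 0.45 and 0.75, and AIF1 at -0.34, 0.82, 0.42 and -1.05. All 3 were higher in clf-28 leaves and flowers, and they differed in sign among themselves in roots and siliques. AIF1 was low in flowers, at 1.73 FPKM in wt against 2.65 in clf-28. The share of all genes higher in both leaves and flowers was not computed, so the shared sign cannot be weighed. The part of harvest time in the JMJ30 values was not tested.

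**Figure D3:**
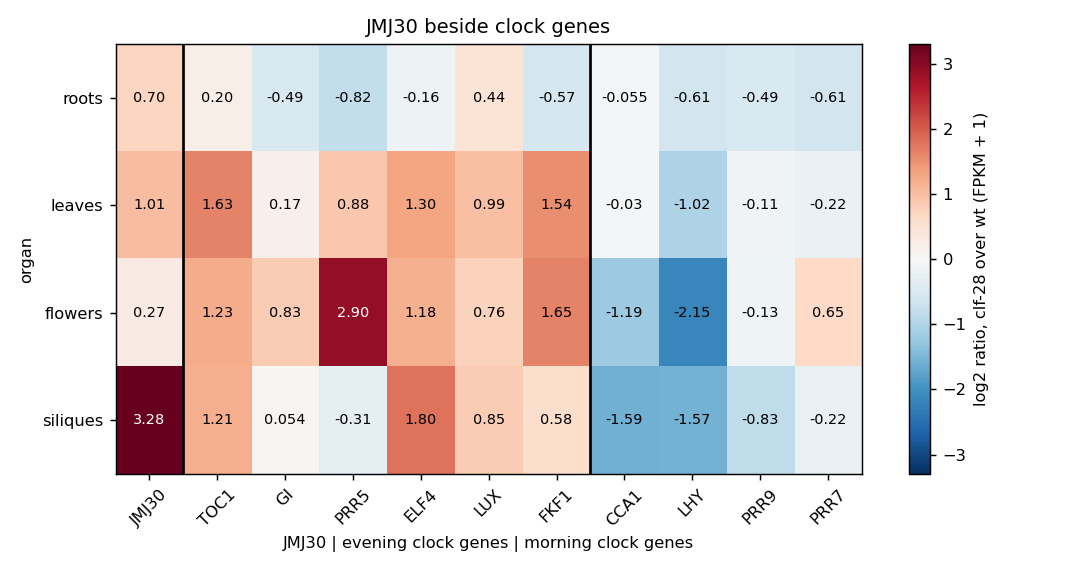
The log2 ratio of clf-28 over wt, on the log2(FPKM + 1) scale, for JMJ30, 6 evening clock genes and 4 morning clock genes in each organ, 1 library per genotype. Red cells are higher and blue cells lower in clf-28. LHY is at or below -0.61 and TOC1 at or above 0.20 in each organ, while PRR7 is at 0.65 in flowers.

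Other genes of the same pathways were set against the 2-fold rule. Of 20 other histone demethylases, 17 had a locus of their own and 16 were measured in each organ. The 2-fold rule was passed by JMJ21 in roots, from 16.3 FPKM in wt to 49.8 in clf-28 (log2 ratio 1.56), and by no other of them in any organ. Of 13 other trithorax-type methyltransferases and subunits of their complexes, 13 were measured in leaves and 12 in roots, flowers and siliques. ATXR3 had no usable value in clf-28 roots, clf-28 flowers and siliques of either genotype. None of the measured genes passed in any organ, with ratios from -0.54 to 0.48. Among 13 measured remodellers of the trithorax group, such as BRM and SYD, none passed either, with ratios from -0.34 to 0.46. Of all measured genes, 5.55%, 5.45%, 1.51% and 11.4% were higher in roots, leaves, flowers and siliques. The shares lower were 1.22%, 1.43%, 1.04% and 8% in that order, so lists of this size would hold few or none in most organs. In limma, which did not test ATXR3, none of the tested genes of these lists was under an unadjusted p of 0.05.

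In siliques the medians of these 3 lists were 0.11, 0.11 and 0.19, beside 0.62 for the 8 genes. Of the 8 PRC2 subunits, MEA, a relative of CLF that acts in the seed, was higher in clf-28 in 4 of 4 organs. So were 10.3% of tested genes. Levels of MEA were low, up to 1.19 FPKM in wt and 2.53 in clf-28 siliques (limma 0.51, SE 0.11, unadjusted p = 0.00525, adjusted p = 0.414). In leaves MEA stood at 0.0259 FPKM in wt against 0.568 in clf-28, and in flowers at 0.354 against 0.726. Both organs lay under the 1 FPKM needed to count as measured. CLF, with its values given above, was the one subunit past 2-fold in an organ, lower in roots and higher in siliques. The shares of all measured genes were 1.22% lower in roots and 11.4% higher in siliques.

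**Figure D4:**
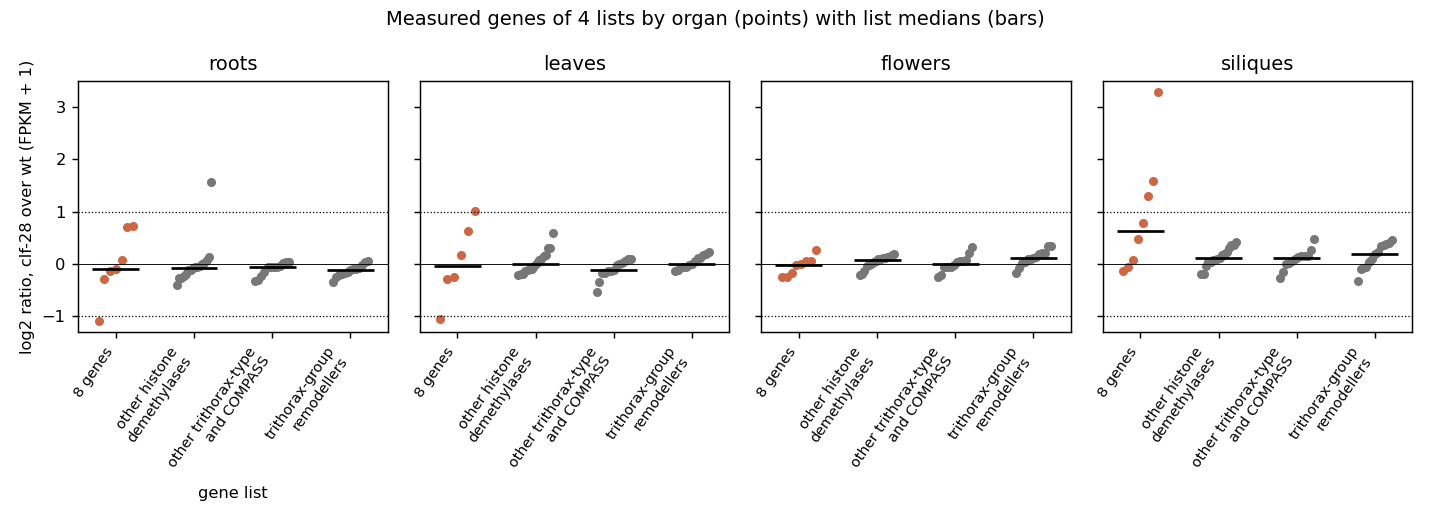
The log2 ratio of clf-28 over wt, on the log2(FPKM + 1) scale, for each measured gene (points) of the 8 genes and of 3 lists of related genes, by organ, with the list's median as a bar and 2-fold as dotted lines. In siliques the 8 genes spread from -0.14 to 3.28, while the related lists stay between -0.32 and 0.48.

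Genes that the literature names as targets of the 8 factors were set beside them. Of 10 such genes, 3 of 6 measured passed the 2-fold rule upwards in roots and 4 of 5 in leaves. In flowers 1 of 8 passed upwards and in siliques 3 of 7. The shares of all measured genes were 5.55%, 5.45%, 1.51% and 11.4% in that order of organs. The rule was passed downwards by AG in siliques alone, beside 8% of all genes. WRKY70, a defence gene that ATX1 activates, gave 5.44 FPKM in wt against 9 in clf-28 for roots, 20.1 against 14.8 for leaves, 13.2 against 9.13 for flowers and 5.25 against 30.5 for siliques. The ATX1 locus itself differed by a log2 ratio of 0.07 in siliques, where WRKY70 differed by 2.33. LBD16, a root gene tied to JMJ30 in callus formation, was at 10.1 and 9.25 FPKM in roots and at 0.325 and 4.58 in siliques. Its relative LBD29, also among the 10 genes, was at 1.8 and 2.4 FPKM in roots. In siliques LBD29 was at 0.052 and 0.086 FPKM, too low to count as measured. AG, where ULT1 opposes CLF, was listed at 0 in wt roots against 1.15 FPKM in clf-28 roots, and had ratios of 4.35, 0.17 and -1.27 for leaves, flowers and siliques. Over the 4 organs ULT1 stood at -1.08, -1.06, -0.24 and 1.30, the opposite sign each time. The share of all genes with signs opposite to ULT1 was not computed. In flowers the values of AG and ULT1 both lay within the spread of most measured genes, -0.74 to 0.81. The silique libraries also differed in seed content. WUS, another of the 10 genes and measured in flowers alone, stood at -0.22 there, the same sign as ULT1. FLC, a target of ELF6, JMJ30 and JMJ32, was higher in clf-28 in 4 of 4 organs, as for 10.3% of tested genes. Its ratios were 2.01, 2.30, 0.64 and 4.31. With 4 organs there are too few values for a correlation between a factor and its target, and none was computed.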

How the data were processed

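Steady-state RNA was measured in 8 libraries, 1 per genotype and organ, made with a TruSeq RNA kit and sequenced on a HiSeq instrument, per the labels' protocols. The authors used TopHat, Cufflinks and TAIR10, per the submitters' processing notes, which carry no versions. The authors deposited FPKM with a lower and upper bound per locus, which were used as deposited. The deposited status column, of unit other, flags usable values. Scaling between libraries and depth are not given in the sources used here, and sums of FPKM ran from 656178 to 715547 per library.

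Tests used log2(FPKM + 1). A gene counted as measured in an organ when both status flags were usable and 1 library reached 1 FPKM. R 4.3.3 and limma 3.58.1 (eBayes with trend) fitted the 24078 genes whose status was usable throughout and that reached 1 FPKM in some library. The additive fit of organ and genotype has 3 residual degrees of freedom, and Benjamini-Hochberg adjustment was made per contrast, with a threshold of 0.05. The fits were run on simulated data in which changed genes differed by the same amount in each organ. That setting does not cover a change confined to 1 organ. The error in these fits comes from how much the clf-28 difference varies between organs, or between organs of a stage in the stage test. It mixes true differences between organs with noise of the libraries. A change confined to 1 organ therefore raises the error for that gene. Nothing says that libraries came from separate cultures.

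The 8 genes, lists and tests were chosen with earlier results of these data known. All 8 are named. From other lists, genes past 2-fold in an organ or under an unadjusted p of 0.05 were named, at most 6 per list, and clock, marker and target lists freely. The 3 most similar genes per member were found by Pearson's r. Deposited starts count from 0, and 1 was added. Sequences are RefSeq's (TAIR10.1), and all 8 genes matched by locus identifier. Python 3.11.15, numpy 2.4.6, pandas 2.3.3 and matplotlib 3.10.9 were used. Alternatives tried were pseudocounts of 0.1 and 5, filters, scaling, the trend, the organ block, each organ left out and a 1.5-fold rule.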

Additional observations from a re-analysis of the deposited data

How the results depend on the processing

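Under each alternative the clf-28 effect over organs passed for 0 of the 8 genes. Over all genes it passed for 0, and for 1 with a pseudocount of 5. Leaving out each organ kept both counts at 0. The test of genotype is paired by organ, and the labels carry no replicate numbers for any other pairing. Without organ as a block, limma called 0 genes. With a pseudocount of 5, 0 of the 8 genes were past 2-fold in roots (lower) or leaves (higher or lower), against 1 each. In leaves 0 were higher with upper-quartile or quantile scaling, and 0 lower with quantile scaling. A 1.5-fold rule gave 2 higher in roots and 2 in leaves. JMJ32's stage difference of 0.0038 turned to -0.0027 with upper-quartile and -0.039 with quantile scaling, ATX1's flowers over leaves to -0.055 with quantile scaling, and ULT2's clf-28 effect to -0.075 without siliques, the low end of a range that reached 0.53 without flowers. For these the cause was not tested.

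Counts over all genes moved with the pseudocount and the rule. With a pseudocount of 5, roots had 630 genes higher and 89 lower, leaves 540 and 84, flowers 140 and 80, siliques 1271 and 902. With 0.1, 406 were lower in roots, 499 lower in leaves, and 484 higher and 429 lower in flowers. With a 1.5-fold rule, roots had 2090 higher and 986 lower, leaves 2075 and 1337, flowers 1052 and 950, siliques 3895 and 3659. The main counts were 1096 and 240, 1009 and 264, 315 and 217, and 2382 and 1671. Depth is unknown, so the authors' intervals alone limit low genes such as JMJ32 and ULT2.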
